A study of Mus musculus with 4 samples.

Results

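Of 26268 autosomal peaks in a merged ALaP-seq peak list, 1496 (5.70%, exact 95% Clopper-Pearson interval 5.42 to 5.98%) lay in exons away from promoters. A peak belonged to this set when its midpoint fell in an exon of a GENCODE M21 protein-coding gene and more than 1 kb from the 5′ end of every protein-coding gene. The full list, with the sex chromosomes, holds 26496 peaks, and the other autosomal peaks lay at promoters (8560), in introns (6802) or between genes (9410). The exonic peaks were spread over 1281 genes, which is 6.16% of 20807 autosomal protein-coding genes. Widths ran from 91 to 1808 bp, with a median of 201 bp and quartiles of 141 and 314 bp.

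ALaP-seq marks chromatin close to PML bodies, nuclear structures built on the PML protein: the peroxidase APEX is fused to PML and, given hydrogen peroxide, tags what is near it with biotin. All 4 samples were E14 mouse embryonic stem cells carrying the APEX-PML knockin, kept in serum medium to which leukemia inhibitory factor, CHIR99021 (which inhibits GSK3) and PD0325901 (which inhibits MEK) had been added. In 2 samples hydrogen peroxide was given (H2O2+), and in 2 it was left out as the control (H2O2-). The peak list merges replicates and names no sample, so the groups were not compared here, the depth behind a peak is unknown, and every value below is a description of 1 list. The sources used here do not say whether the knockin line is 1 clone.

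An exon is the part of a gene that stays in the mature RNA, and the first exon of one transcript often begins at a start site inside a longer gene. Regulatory DNA is not limited to promoters and introns: some enhancers overlap coding sequence or untranslated regions. CpG islands, stretches rich in G, C and the dinucleotide CpG, mark most promoters of widely used genes and also occur inside the bodies of developmental genes.

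The stretches below show short words in peaks of first, inner and last exons, chosen because the ESRRB and NRF1 words were more frequent in these peaks than in exon windows, by the shares given further on, and the octamer word is that of a core pluripotency factor. Each run is 30 bases of mm10 (GRCm38, RefSeq sequence), read 5′ to 3′ on the strand of the host gene, with the word in capitals. The ESRRB word is TCAAGGTCA, the NRF1 word is GCGCATGCG and the octamer word of POU factors is ATGCAAAT, each searched on both strands. All words shown lie inside the named peak; those of Etv5 and Srsf11 lie beyond the exon edge, in the part of the peak that is not exonic.
Fgf4, 3′ UTR of the last exon, chr7:144864659-144864688, plus strand, ESRRB word on the opposite strand: tcactaaagaTGACCTTGAatttctgatcc
Il6ra, 3′ UTR of the last exon, chr3:89865304-89865333, minus strand, ESRRB word on the opposite strand: atagctgttggTGACCTTGAtgcccctttc
Nlrp12, 3′ UTR of the last exon, chr7:3222335-3222364, minus strand, ESRRB word: gacaagatcacTCAAGGTCAtcctgttaca
Dennd5b, 3′ UTR of the last exon, chr6:148992514-148992543, minus strand, octamer word: tgaccatgataATGCAAATaacagaagctg
Etv5, beside inner exon 7, chr16:22411954-22411983, minus strand, octamer word: gcctggttactATGCAAATgcctccctgga
Angptl6, coding part of inner exon 2, chr9:20878406-20878435, minus strand, NRF1 word: ctggccacgctGCGCATGCGcctgggtcgc
Srsf11, beside inner exon 2, chr3:158031758-158031787, minus strand, NRF1 word: ccgggatatggGCGCATGCGcgggcgggcg
Dnmt1, 5′ UTR of a first exon, chr9:20952932-20952961, minus strand, NRF1 word: gcctccgttgcGCGCATGCGcactcccttc
The 3 stretches from 3′ UTRs with an ESRRB word hold no CpG, whereas the 3 with an NRF1 word come from peaks whose surrounding 500 bp have a CpG observed/expected ratio of 0.95 (Angptl6), 0.980 (Srsf11) and 0.721 (Dnmt1). A match describes the letters only.

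Exon classes followed the main transcript of each gene (best APPRIS level, a rating of principal isoforms) and, where that had no exon at the midpoint, another coding transcript. First exons held 408 peaks (27.3%, 25 to 29.6%) although they make up 2.39% of the exonic bases more than 1 kb from gene 5′ ends. Inner exons held 343 (22.9%, with 29.2% of the bases) and last exons 437 (29.2%, interval 26.9 to 31.6%, with 43.1% of the bases). A further 261 peaks (17.4%) lay in exons used only by noncoding transcripts of protein-coding genes, and 47 (3.14%) in genes with a single exon. By part, 528 peaks (35.3%, interval 32.9 to 37.8%) had their midpoint in coding sequence, 396 (26.5%) in a 5′ UTR and 311 (20.8%) in a 3′ UTR.

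Per length, first exons away from the gene 5′ end came near promoters, and the other exons lay above introns. First exons carried 204 peaks per Mb (exact Poisson 95% interval 185 to 225) against 219 per Mb (214 to 223) in promoters, a ratio of 0.935 (0.844 to 1.03), or 0.859 (0.776 to 0.949) per unmasked base. The stretches are unlike, since a promoter here reaches 1 kb to each side of a gene's 5′ end and these first exons have a median length of 212 bp at a start. Counted per item, 9.27% of main-transcript first exons away from gene 5′ ends held a peak, and 40.2% of genes had one at the promoter. Inner exons had 14.1 peaks per Mb (12.6 to 15.7), last exons 12.2 (11 to 13.4), single-exon genes 22.4 (16.5 to 29.8) and introns 7.69 (7.50 to 7.87). The first-exon density was 14.5 times that of inner exons (12.6 to 16.8). All intervals cover counting error only, and peaks that lie in clusters are not independent of each other.

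Reads had been mapped to a genome with repeats masked, and exons differ from introns in how much sequence that leaves. Unmasked sequence was 95.8% of inner-exon bases, 82.8% of last-exon bases and 71.4% of intron bases. Per Mb of unmasked sequence inner and last exons both had 14.7 peaks (13.2 to 16.3 and 13.4 to 16.1), so that their ratio, 0.864 over all bases (last to inner, 0.748 to 0.998), became 1.00 (0.866 to 1.15). The excess of all exons over introns went from 2.33 times (2.21 to 2.47) to 1.94 times (1.83 to 2.05). All peaks stayed in these counts, also those mostly in masked sequence (2.67% of exonic and 10.9% of intron peaks).

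**Figure D1:**
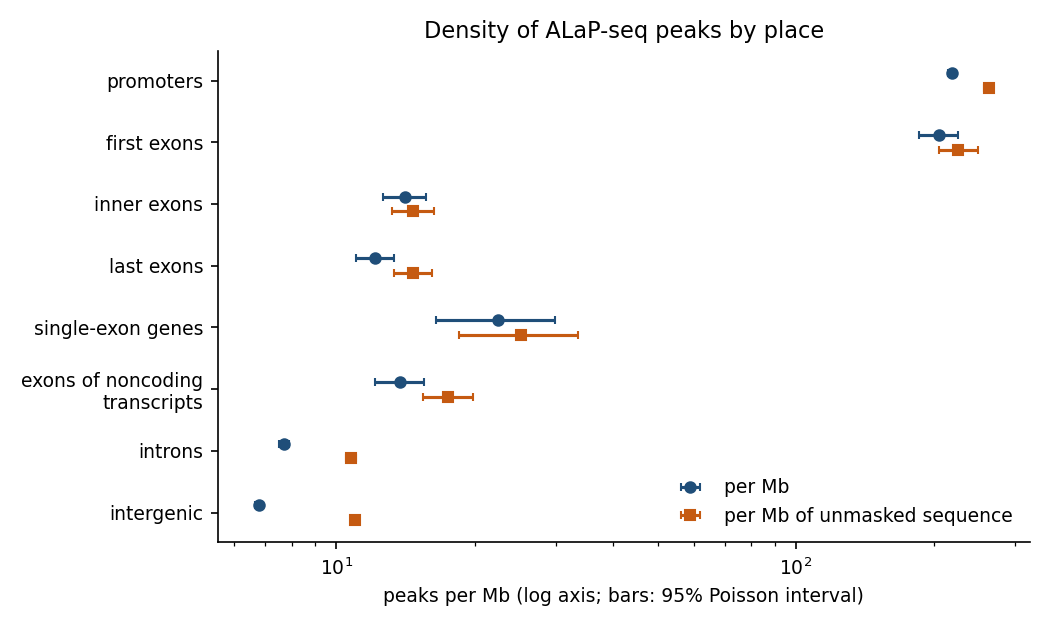
Peaks per Mb (log axis) in promoters, the 5 exon classes, introns and intergenic sequence, over all bases (circles) and over unmasked bases (squares), with exact Poisson 95% intervals as bars. First exons (204 per Mb) sit beside promoters (219 per Mb), while inner and last exons (14.1 and 12.2 per Mb) sit above introns (7.69 per Mb).

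Within exons, coding sequence and untranslated sequence differed. In last exons the coding part had 25.1 peaks per Mb (21.2 to 29.5) and the 3′ UTR 9.71 (8.62 to 10.9), a ratio of 2.58 (2.10 to 3.16), or 2.25 (1.83 to 2.75) per unmasked base. The coding part of last exons was also denser than that of inner exons, by 1.95 times (1.59 to 2.39). Over unmasked bases the 3′ UTR of last exons could not be told from introns by its interval (ratio 1.12, 0.989 to 1.26), and the inner coding sequence stood 1.24 times above them (1.10 to 1.39). Peaks mostly in masked sequence were kept here, 6.90% of last-exon 3′ UTR peaks and 10.9% of intron peaks. Ratios without them were not computed. Along the 3′ UTR, 101 peaks fell in the third nearest the stop codon, 104 in the middle and 85 in the third nearest the transcript end, or 10.1, 10.4 and 8.58 per Mb, with overlapping intervals.

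Among inner exons the density was highest in exon 2, at 27.2 peaks per Mb (21.8 to 33.6), and 18.5 (13.6 to 24.5) in exon 3. It was 11.8 (7.64 to 17.4) in exon 4, 12.6 (10.1 to 15.5) in exons 5 to 9 and 10.1 (8.20 to 12.3) from exon 10 on. With positions within 1 kb of any annotated transcript start left out, exon 2 still had 16.5 peaks per Mb (11.6 to 22.9) against 8.65 (6.68 to 11) from exon 10 on. The intervals of exons 3 to 9 overlap both of these.

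**Figure D2:**
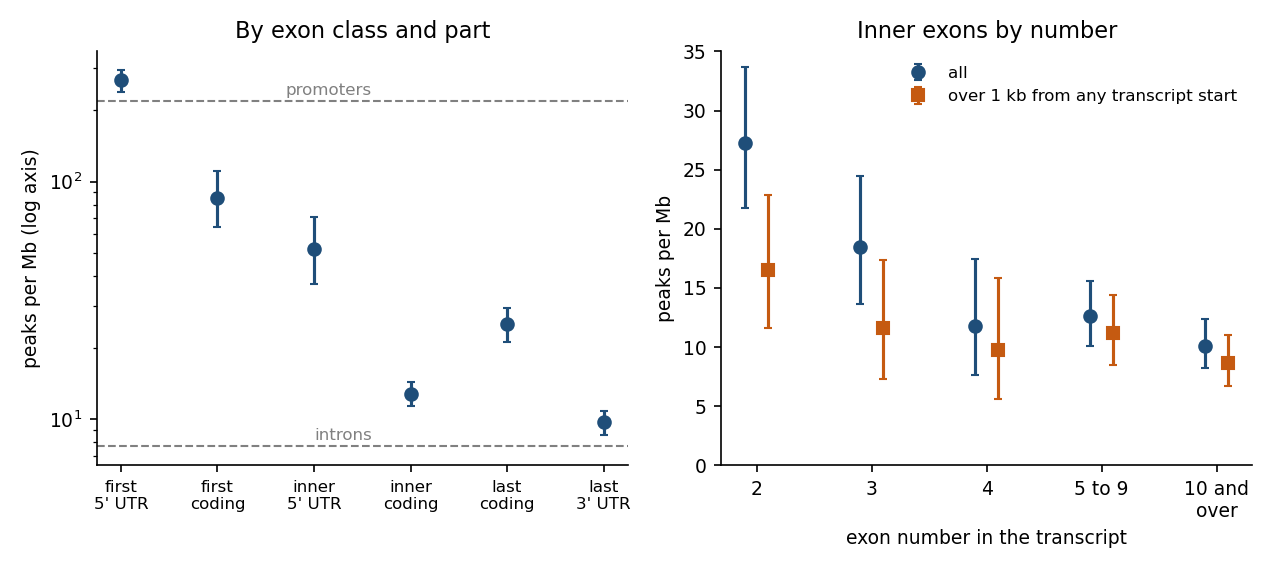
Left, peaks per Mb (log axis) by exon class and part, with the levels of promoters and introns as dashed lines; right, peaks per Mb of inner exons by exon number, for all positions (circles) and for those over 1 kb from any transcript start (squares), all with Poisson 95% intervals. The coding part of last exons (25.1 per Mb) stands above their 3′ UTR (9.71 per Mb), and exon 2 (27.2 per Mb) above exons 10 and over (10.1 per Mb).

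The rule used only the outermost 5′ end of each gene, and many of these peaks lay at another annotated start. In all, 730 of the 1496 peaks (48.8%, 46.2 to 51.4%) had their midpoint within 1 kb of a transcript start of a protein-coding gene. Starts of noncoding transcripts of such genes were counted too. Within 1 kb of a transcript start of any gene lay 780 (52.1%, 49.6 to 54.7%). For starts of protein-coding genes the share was 97.3% for first exons (397 of 408) and 39.1% for inner exons (134 of 343). It was 61.3% for exons of noncoding transcripts (160 of 261) and 8.47% for last exons (37 of 437). Annotated exon windows of the same classes lay that near at 96.2%, 22.3% and 5.56% for first, inner and last exons, so for first exons closeness to a start comes with the class itself. The first-exon peaks near a start had their midpoint a median of 32 bp downstream of it (quartiles 3 and 89 bp), whereas the inner-exon ones were spread on both sides, 68 downstream and 66 upstream.

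**Figure D3:**
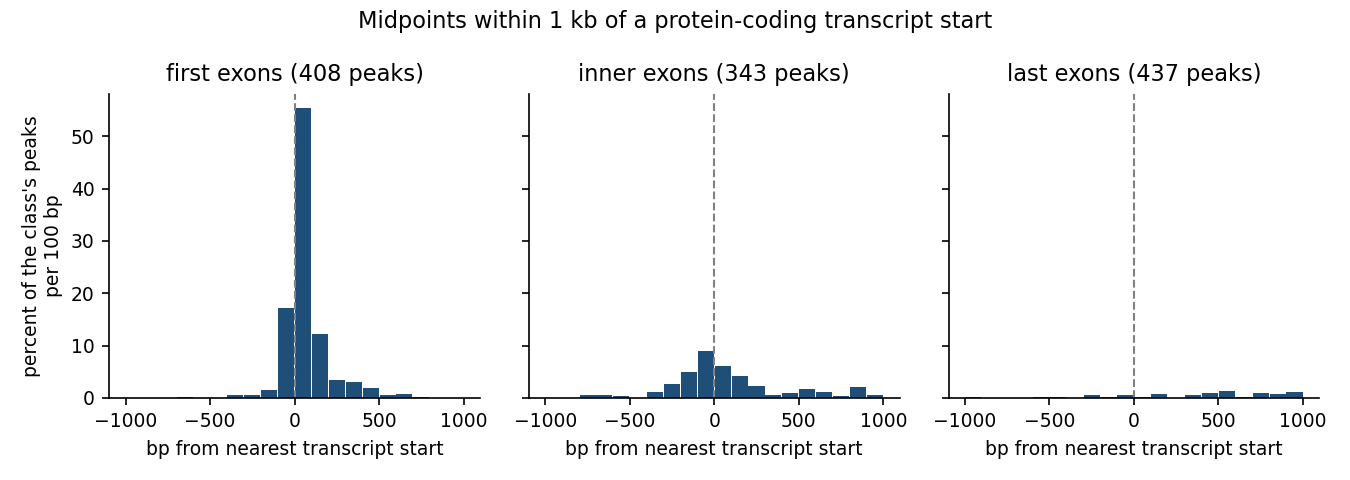
Midpoints within 1 kb of a transcript start of a protein-coding gene, in bins of 100 bp, as percent of all peaks of the first, inner and last exon classes. Here 0 is the start and positive values lie downstream. First-exon peaks gather just downstream of the start (median 32 bp), and few last-exon peaks (37 of 437) lie in the range at all.

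Here and below, a gene's 5′ end is its outermost annotated one. A peak there was not a condition for an exonic peak further in. Of the 408 first-exon peaks, 236 lay in the first exon of the gene's main transcript. A gene without a peak at its 5′ end can thus have one in the first exon of its main transcript. Of the 396 genes with a first-exon peak, 173 also had a peak of another place reaching within 1 kb of the gene's 5′ end and 223 (56.3%) had none. Counted by peak, the host gene had such a promoter peak for 689 of 1496 (46.1%, 43.5 to 48.6%), against 40.2% of all autosomal protein-coding genes.
Dnmt1, the methyltransferase that copies DNA methylation after replication and is known to use different first exons in oocytes and in somatic cells, shows such a case. Its peak at chr9:20952506-20953204 was 699 bp wide. The midpoint lay 10 bp upstream of an internal transcript start and 7033 bp from the gene's annotated 5′ end, and there was no peak at that 5′ end. The whole peak holds the NRF1 word at 2 places, each matched on both strands.

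The widest first-exon peaks were at Pde4d, a cAMP phosphodiesterase gene (1117 bp), Rnf44 (1115 bp), Gapdh, the glycolytic dehydrogenase (1109 bp), Ing1 (887 bp) and C2cd2 (830 bp). Their midpoints lay 110, 48, 198, 20 and 113 bp downstream of an internal start. Pde4d stands apart: its peak is CpG-poor (observed/expected ratio 0.158), the exon covers 11.7% of it, and it lies 1182942 bp from the gene's 5′ end, which has no peak. The sequence of the Rnf44 peak, at a ratio of 1.07, is at the other extreme.
Hsp90aa1, the stress-inducible HSP90 chaperone gene, had a first-exon peak of 597 bp, 26 bp upstream of an internal start, in sequence with a ratio of 0.985. Cbx7, a polycomb subunit gene, had one of 356 bp in coding sequence, 24 bp downstream of a start and 37313 bp into the gene.

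Sequence composition followed the same division. A peak was called CpG-island-like when the 500 bp around its midpoint had at least 50% GC and a CpG observed/expected ratio of at least 0.6. That held for 583 of the 1496 peaks (39.0%, 36.5 to 41.5%), between promoter peaks (80.2%) and intron peaks (9.42%). By class it was 73.8% in first exons, 31.2% in inner exons, 22.2% in last exons, 51.1% in single-exon genes and 20.7% in exons of noncoding transcripts. By part it was 41.7% in coding sequence and 8.04% in 3′ UTRs. In last exons the contrast was widest, with 77 of 146 coding peaks (52.7%) and 19 of 290 peaks in 3′ UTRs (6.55%).

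Exons in general are rarely of this kind, and those that are held peaks far more often. Of 154318 inner exons of main transcripts away from promoters, 1.05% were CpG-island-like; 5.39% of these (4.34 to 6.60%) held a peak, against 0.145% (0.127 to 0.166%) of the other inner exons. The shares were 13.2% (9.96 to 17.1%) and 1.65% (1.47 to 1.85%) for last exons, and 20.9% (18.3 to 23.8%) and 2.31% (1.60 to 3.21%) for first exons. Exons over 1 kb from any transcript start gave like values: 4.97% (3.62 to 6.63%) against 0.126% for inner exons, and 13.4% (9.84 to 17.7%) against 1.61% for last exons. The median length was 124 bp for inner and 1110 bp for last exons, so these shares compare exons within a class, not between classes. Within a class, the lengths of CpG-island-like and other exons were not compared. The CpG content was taken around the exon's midpoint, which need not be where the peak lies.

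**Figure D4:**
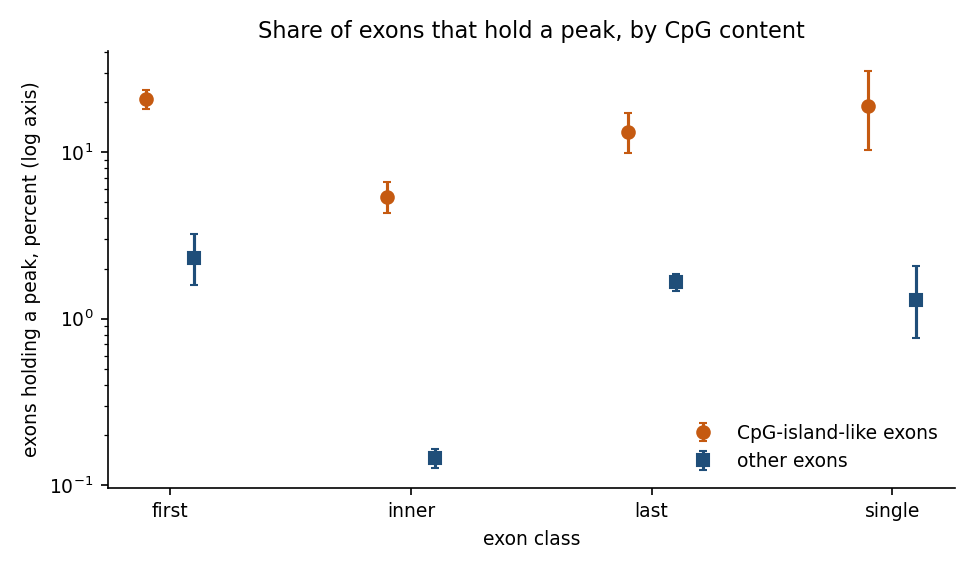
Percent of main-transcript exons away from promoters that hold a peak (log axis), for CpG-island-like exons (circles) and other exons (squares) of 4 exon classes, with exact 95% binomial intervals. In each class the CpG-island-like exons are higher, as in inner exons (5.39% against 0.145%).

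In 716 cases (47.9%) the peak lay over 1 kb from the start of any annotated transcript. Of these, 333 were in coding sequence, 274 in a 3′ UTR and 11 in a 5′ UTR; 371 were in last exons and 199 in inner exons. They were narrower (median 180 bp against 220 bp for peaks within 1 kb of a transcript start of a protein-coding gene). Of them, 155 (21.6%) were CpG-island-like, 119 of these in coding sequence.
Developmental regulator genes had CpG-rich exonic peaks, some of them that far from any start. Nkx2-1, a homeobox gene of thyroid, lung and forebrain, had 2 peaks in the coding part of its last exon (137 and 297 bp, ratios 0.812 and 0.852). Both lay over 1 kb from any start, and the gene had no peak at its outermost 5′ end. A transcript of Nkx2-1 starts 1927 and 1690 bp from their midpoints, and whether a peak lies at that start was not tested. Sp8, a zinc finger factor gene of limb development, had 4 in its last exon, 3 of them coding (426, 257 and 172 bp) and CpG-island-like. The other 1, in the 3′ UTR (342 bp), was not CpG-island-like, at a ratio of 0.4585. That of 426 bp lay 869 bp from a transcript start of Sp8 and the others over 1 kb from any. Tfap2a, the gene of AP-2 alpha, a factor of neural crest and skin, had CpG-rich peaks in coding exons 2, 4 and 7 (323, 645 and 122 bp). Of these, that in exon 7 was over 1 kb from any start. That in exon 2 lay 505 bp from a transcript start of Tfap2a, and that in exon 4 lay 12 bp from a start of a noncoding gene. Foxl2, an ovarian forkhead gene with a single exon, had 2 in its 3′ UTR (358 and 212 bp), both over 1 kb from any start, with a promoter peak as well.

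Genes of pluripotency carried 8 of these peaks, in 7 of the 23 listed genes (30.4%, beside 6.16% of all genes); the list was chosen with results of these data known. Fgf4, the growth factor that stem cells secrete, had 2, both in the 3′ UTR of its last exon, a place known as the seat of an enhancer bound by OCT4 and SOX2. The first, chr7:144863906-144864028, was 123 bp wide and the second, chr7:144864270-144865066, was 797 bp wide. Both were CpG-poor (ratios 0.263 and 0.0678). The gene had no peak at its outermost 5′ end, which lay 16600 and 17301 bp from their midpoints. A transcript of Fgf4 starts 2581 and 3282 bp from these midpoints, and whether a peak lies at that start was not tested. The second peak holds, besides the ESRRB word shown above, 1 match to the KLF word GGGTGTGG and 1 to the TEAD word GGAATG. Neither Fgf4 peak holds the octamer word as spelled here.

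Esrrb, an orphan nuclear receptor of the naive state, had a peak of 277 bp over coding exon 2 (chr12:86470067-86470343), CpG-island-like and 88 bp downstream of an internal start, with none at the gene's 5′ end 109088 bp away. Nanog, the homeodomain factor, had a peak of 171 bp in the coding part of its last exon (chr6:122713230-122713400), besides a promoter peak. The former lay 5747 bp from the nearest transcript start of a protein-coding gene.
Klf5 had 1 of 120 bp in coding exon 2 (chr14:99301625-99301744). Tbx3, a T-box factor gene, had 1 of 855 bp at an exon of a noncoding transcript, 11 bp downstream of the start of that transcript. Tdgf1, which encodes the Nodal co-receptor Cripto, had 1 of 216 bp in a first exon, and Dppa2 1 of 336 bp in the 5′ UTR of inner exon 2. Thus 4 of the 8 lay within 1 kb of a transcript start, coding or noncoding, of a protein-coding gene, and 4 (both of Fgf4, those of Nanog and Klf5) did not.

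Of 24 genes for PML body components, 1 had such a peak (4.17%, beside 6.16%). It was Pml, the gene of the tagged protein, with a peak of 414 bp over coding exon 2 (chr9:58247045-58247458). The midpoint lay 2371 bp from the nearest transcript start of a protein-coding gene and 2534 bp from the 5′ end of Pml, which also had a peak. The exon covers 95.2% of the peak over exon 2, whose CpG ratio is 0.560. The sources used here do not say which part of the gene the knockin construct carries.

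The other lists, also chosen with results of these data known, are given beside the 6.16% over all genes; histones, collagens, olfactory receptors and keratins lay below it and the rest above. Homeobox genes outside the Hox clusters had peaks in 16 of 79 (20.3%), Fox, Sox, Gata and Tbx genes in 14 of 76 (18.4%) and Hox genes in 5 of 39 (12.8%). Genes of DNA methylation had them in 5 of 15 (Dnmt1, Dnmt3a, Dnmt3l, Mbd3 and Uhrf1), imprinted genes in 6 of 26, heat shock genes in 5 of 19, FGF, LIF and WNT targets in 4 of 24 and polycomb genes in 3 of 27. Splicing factors and hnRNPs had them in 6 of 54, protocadherins in 8 of 66, cytosolic ribosomal proteins in 6 of 75, Trim genes in 5 of 68 and solute carriers in 25 of 358 (6.98%). Histone genes of the replication type had them in 3 of 67, and 57 of the 67 had a promoter peak. The rule leaves out exons within 1 kb of a 5′ end, so a short gene has little or no sequence that could count. The shares of the lists were not set against that length. At the low end were collagens with 1 of 43, olfactory receptors with 6 of 1127 (0.532%) and keratins with 0 of 53.

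Numbered Zfp genes, which mostly encode DNA-binding zinc finger proteins, had peaks in 37 of 385 (9.61%). Of their 43 peaks, 23 lay in last exons, where zinc finger arrays are usually encoded, and 12 in first exons. Zfp936 had 3: 704 bp at a first exon, and 122 and 276 bp in the coding part and 3′ UTR of its last exon. Over last-exon peaks of all genes, the word ACTGGAGA, part of the code for the linker between fingers, was in 2.52%. In windows over last exons in general it was in 2.67%, and Zfp peaks were not counted apart. A near-identical copy elsewhere in the genome was found for 8 of the 43 Zfp peaks (18.6%), among them the first-exon peak of Zfp936, which had 2. Over all 1496 peaks, 38 (2.54%) had such a copy and 40 (2.67%) were mostly repeat-masked, and how reads that fit several places were treated is not stated in the sources used here.

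The widest peaks of inner exons exceeded most inner exons in length, since the inner exons that held a peak had a median length of 191 bp and the last exons 2340 bp. The exon therefore covered only part of them: Hyal2, a hyaluronidase gene (800 bp, of which 31.6% exonic), the zinc transporter gene Slc30a2 (740 bp, 18.2%), the clamp loader gene Rfc4 (739 bp, 35.1%) and the phosphodiesterase gene Pde1b (681 bp, 16.7%). Angptl6, an angiopoietin-like gene (736 bp, 75.4%), had the largest exonic share of these 5 and was CpG-rich and coding.
Those of last exons lay almost whole in the exon: Dennd5b (1175 bp, 100%, 3′ UTR), Hist1h2be (1116 bp, 87.5%), Iffo1 (1112 bp, 100%) and Nlrp12 (1048 bp, 82.4%). Next came 2410141K09Rik (1007 bp, 100%, coding), whose peak had 7 near-identical copies elsewhere in the genome. Of single-exon genes the widest were Hist1h1d, a linker histone gene (1808 bp), Sox12 (604 bp) and Ppp2r3d (412 bp). Across the classes, 90.4% of last-exon peaks lay wholly inside the exon, but 38.5% of inner-exon and 32.8% of first-exon peaks did. In 244 cases the peak covered an exon whole, and in 4 both edges fell within 10 bp of the exon's edges.

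Most host genes had 1 peak (1111 of 1281), and 170 had 2 or more, with 385 peaks between them. Mroh2a had the most, 6 narrow peaks of 91 to 170 bp in inner coding exons and the 3′ UTR of the last exon. Nlrp12, a NOD-like receptor gene, had 5, all in the 3′ UTR of its last exon (154, 253, 257, 394 and 1048 bp). Their midpoints lay 84, 129, 67, 338 and 1448 bp, in that order, from the nearest transcript start of a noncoding gene. Il6ra, which encodes the interleukin-6 receptor alpha chain, had 4 in its 3′ UTR (162, 213, 270 and 447 bp), with no peak at its 5′ end. Hjurp, a chaperone gene of centromeric histone, and Cacng7, a calcium channel subunit gene, had 4 each, as did A930004D18Rik. Ehmt2, the gene of the H3K9 methyltransferase G9a, and Rarg, a retinoic acid receptor gene, had 3 each.

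In 16 genes the peaks fell in 3 or more different exons. Ltbp4, which encodes a binding protein of latent TGF-beta, had them in inner coding exons 6, 26 and 29 (294, 118 and 288 bp), of which that in exon 26 lay 18 bp upstream of an annotated start. Tgif1, a homeobox repressor gene of the TGF-beta pathway, had them in 2 first exons of different transcripts (334 and 153 bp), 14 and 57 bp downstream of their starts, and in an exon of a noncoding transcript (516 bp). Vwf, the gene of von Willebrand factor, had them 31459, 45302 and 56678 bp from its 5′ end (403, 453 and 129 bp), with no promoter peak. Trim2 had all 3 in exons of noncoding transcripts (165, 327 and 146 bp).

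Among the leading genes of the other lists, Etv5, an ETS factor gene that responds to FGF signalling, had a peak of 459 bp at coding exon 7. It lay 10056 bp from the nearest transcript start of a protein-coding gene, with octamer, SOX and CRE words around its midpoint. Slc35b2, a nucleotide sugar transporter gene, had 2 in its last exon, 168 bp in the coding part and 779 bp in the 3′ UTR. Hoxa9 had 1 in the coding part of a first exon (178 bp) and 1 in an exon of a noncoding transcript (226 bp), both CpG-island-like and with no peak at the gene's 5′ end. Col2a1, a cartilage collagen gene, had 2 in exons of noncoding transcripts, 117 and 179 bp wide. Srsf11, a splicing factor gene, had 1 of 443 bp over coding exon 2, 69 bp upstream of an internal start.

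Peaks of other places were also counted around these genes, with all exonic peaks of the set left out. Within 50 kb of a gene's body the median protein-coding gene had 1.63 such peaks per 100 kb and the median host gene 3.02. Ehmt2 had 13.8 per 100 kb (5 promoter, 6 intron and 5 intergenic peaks), Nlrp12 11.4 (2, 2 and 11) and Rarg 11.4 (5, 9 and 0). Hjurp had 7.81, Mroh2a 6.65, Il6ra 6.04 and Cacng7 4.44. The genes were picked for their exonic peaks, so these values are a description of their surroundings. The peaks of Mroh2a and Hjurp lie side by side on chromosome 1, between 88232240 and 88275918, and those of Nlrp12 and Cacng7 on chromosome 7, between 3218926 and 3367464. Over all 1496, another peak lay within 5 kb for 766 (51.2%), compared with 46.8% of intron and 50.2% of intergenic peaks. By chromosome, exonic peaks made up 3.58% (chromosome 13) to 8.60% (chromosome 7) of the autosomal peaks there.

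Short words were counted in the 300 bp around each midpoint and in windows of that length centred on all exons of main transcripts away from promoters. The ESRRB word was in 15 of 437 last-exon peaks (3.43%, 1.93 to 5.60%) and 0 of 408 first-exon peaks (exact interval up to 0.90%). Last-exon windows had it at 0.533%, promoter peaks at 0.502% and intron peaks at 3.03%. First-exon windows had it at 0.298%, which lies inside the interval of the first-exon peaks. In inner-exon peaks it was 1.75% (0.645 to 3.77%) against 0.55% in their windows. The KLF word followed the same order: 3.68% of first-exon, 6.71% of inner-exon and 8.24% of last-exon peaks, with 2.25%, 2.47% and 2.34% of first, inner and last windows.

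The NRF1 word, typical of CpG-rich promoters, was in 2.94% (1.53 to 5.08%) of first-exon, 2.33% (1.01 to 4.54%) of inner-exon and 1.83% (0.794 to 3.58%) of last-exon peaks. Windows had it at 0.808%, 0.0868% and 0.0729%, and promoter peaks at 3.60%. The ETS word CCGGAAG was in 14.2%, 12.2% and 8.24% of peaks of the 3 classes and in 19.1% of promoter peaks, with 6.84%, 2.73% and 1.92% of windows. Base composition differs between peaks and windows (median GC 57.2% and 47.6%), and so the shares were also taken within CpG classes. Exon classes were pooled there, and their mix differs. First exons gave 301 of 583 CpG-island-like peaks and 879 of 2927 such windows, and exons of noncoding transcripts had no windows. Among CpG-island-like sequence the NRF1 word was in 3.95% of peaks (2.52 to 5.86%) and 1.16% of windows (0.806 to 1.62%), and the ETS word in 15.8% (12.9 to 19.0%) and 8.34% (7.36 to 9.40%). Among other sequence the ESRRB word was in 2.52% of peaks (1.60 to 3.76%) and 0.55% of windows, and the KLF word in 8.98% (7.21 to 11%) and 2.45%.

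**Figure D5:**
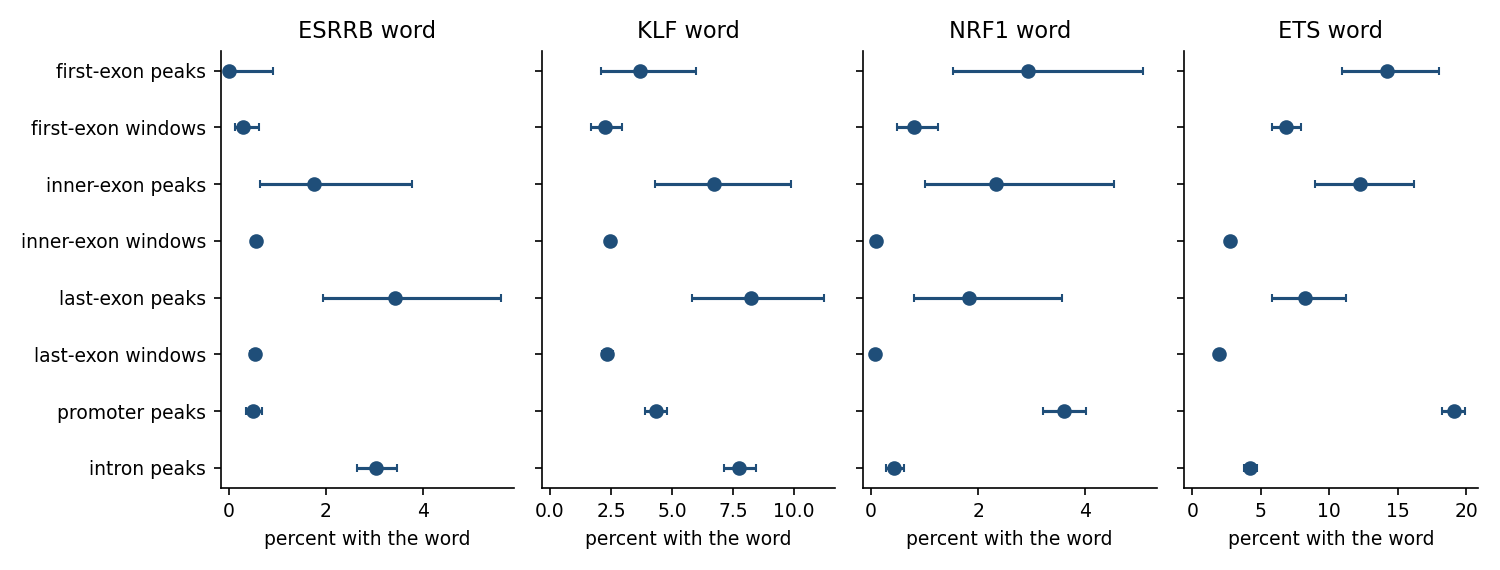
Percent of 300 bp windows that hold each of 4 words, for peaks and all exon windows by class and for promoter and intron peaks, with exact 95% binomial intervals. The ESRRB word is in 0 of 408 first-exon and 3.43% of last-exon peaks, the reverse of the order of the ETS word (14.2% and 8.24%). First-exon and last-exon windows have the ESRRB word at 0.298% and 0.533%.

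Of the other words, some differed from exon windows and some did not. The octamer word was in 2.27% of the exonic peaks (1.58 to 3.16%), between exon windows (1.16%) and intron peaks (4.72%). The SOX word AACAATG (3.61%, 2.72 to 4.68%), the TEAD word GGAATG (14.5%, 12.8 to 16.4%) and the YY1 word AAGATGGC (2.67%, 1.92 to 3.62%) were near their shares in exon windows (4.50%, 15.4% and 1.97%). The AP-1 word TGANTCA was in 5.15% (4.08 to 6.39%) against 7.44% of exon windows. Within CpG classes that deficit did not hold: 3.77% (2.38 to 5.66%) of CpG-island-like peaks against 2.87% of windows, and 6.02% (4.57 to 7.77%) of the other peaks against 7.52%. A word for ZFP57, the factor that guards imprints, TGCCGC, was in 34.0% of CpG-island-like peaks (30.1 to 38.0%) and 28.0% of such windows (26.4 to 29.6%). Among other sequence it was in 10.7% of peaks (8.80 to 12.9%) and 5.18% of windows. The pattern CCANNAGGG from the CTCF site was in 10.5% of last-exon peaks (7.81 to 13.8%) and 5.57% of their windows. The E-box word CACGTG was in 8.09% of exonic peaks (6.76 to 9.59%) and 4.55% of exon windows. Within CpG classes it was in 11.5% (9.02 to 14.4%) against 9.50%, and in 5.92% (4.47 to 7.65%) against 4.46% of other sequence. The CRE word TGACGTCA was in 1.00% (0.562 to 1.65%) against 0.373%, and the STAT word TTCCNGGAA in 1.47% (0.924 to 2.22%) against 1.02%.

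Just inside the limit of 1 kb were Prdx6 (116 bp, 1003 bp from the gene's 5′ end) and Abhd14b (157 bp, 1004 bp from the nearest 5′ end), and just outside Hcrt (129 bp, 1000 bp) and Ppp2r3d (1069 bp, 997 bp). At 1001 to 1500 bp there were 168 peaks of the set, with a median width of 194 bp and 64.3% CpG-island-like. The 307 exonic peaks at 501 to 1000 bp, counted as promoter peaks, had a median width of 211 bp and were 71.0% CpG-island-like. At the far end, 660 of the 1496 lay over 10000 bp from any protein-coding 5′ end, and 25.2% of those were CpG-island-like.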

How the data were processed

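ALaP-seq was done on 4 samples, 2 given hydrogen peroxide and 2 not. Per the submitters' processing notes, Trimmomatic, Bowtie2 2.3.5.1 and bedtools were used with mm10; per the series' design text, repeats were masked before mapping and blacklisted and greylisted regions were removed. Which caller made the peaks, at which threshold, and how replicates were merged are not stated in these sources. The file the authors deposited gives chromosome, start and end of each peak and no height, score or count.

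Midpoints were placed on GENCODE M21 exons and sequence was read from GRCm38 (RefSeq). Shares carry exact Clopper-Pearson 95% intervals, densities exact Poisson intervals and density ratios exact conditional intervals; no test across features was made. A near-identical copy is a match of the central 150 bp (minimap2 2.31) at 95% identity over at least 80% of it elsewhere on the assembled chromosomes. The scripts were tested on simulated data. The named genes are the widest per class, those with most peaks or peaks in 3 or more exons, the pluripotency and PML lists, the leading gene of each other list and the peaks next to the limit; not all are printed. The set, the 20 gene lists and the 15 words were chosen with earlier results of these data known. Alternatives changed peak width, the exonic share, the promoter distance and starts, the transcript choice, copies and peaks per gene.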

Additional observations from a re-analysis of the deposited data

How the results depend on the processing

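Of 57 alternative values, 36 stayed within the main value's interval (counts within 1.5 times), 20 moved and 1 reversed. With every annotated transcript start counted as a promoter, 716 peaks remained; their last-exon share was 51.8%, coding share 46.5%, CpG-island-like share 21.6%, median width 180 bp and last-to-inner density ratio 1.03, above 1 instead of below it. Only peaks at least as wide as the list's median of 223 bp left 649, with a median of 333 bp, 30.8% coding, 44.1% CpG-island-like and 57.9% within 1 kb of another start. A promoter distance of 2 kb gave 33.1% in last exons, 34.7% CpG-island-like and 48.2% within 1 kb of a start. Basic transcripts alone gave 37.2% last, 44.8% coding, 42.1% CpG-island-like and 47.4% near a start. With 1 peak per gene the median width was 213 bp. Of 2 alternatives added after seeing the data, unmasked bases gave a last-to-inner ratio of 1.00 and stricter CpG thresholds (55% GC, ratio 0.65) a share of 33.6%. Counting every start as promoter leaves no share near another start to compute. No paired analysis was possible because the list merges replicates and holds no values per sample; for the same reason no replicate could be left out, and depth is unknown.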
